A study of Mus musculus with 2 samples.

Results

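The genes described here carry the calcium signal of T cells from the plasma membrane to the nucleus. They are 4 NFAT transcription factor genes (Nfatc1, Nfatc2, Nfatc3 and Nfat5), 3 subunit genes of the phosphatase calcineurin (Ppp3ca, Ppp3cb and Ppp3r1) and 3 genes of store-operated calcium entry (Stim1, Stim2 and Orai1). They were taken by symbol, and all 10 were found among the 24081 gene symbols of the count table. The study asks about the part of SUMOylation, a modification of proteins by small ubiquitin-like partners, in the expansion and function of regulatory T cells (Treg cells). The KO library came from Foxp3cre/wt mice with both alleles of a SUMO pathway gene floxed. The WT library came from Foxp3cre/wt mice with 1 floxed allele of that gene, so the WT cells carried the Cre and a floxed allele too. Mice were C57BL/6 and 5 weeks old. In both groups Cre was driven by Foxp3, and CD4+ YFP+ cells were sorted out of spleen and lymph nodes. Foxp3 is X-linked, so Foxp3cre/wt mice also keep Treg cells without Cre. Each library was a pool over 5 to 10 mice. With 1 library for KO and 1 for WT, differences have no replicate check and nothing was tested. The genotype label of the KO sample also reads wild type, so directions rest on the sample titles.

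In a stimulated T cell, the antigen receptor activates phospholipase C gamma, which leads to release of calcium from the endoplasmic reticulum. STIM proteins sense the emptied store and open ORAI channels in the plasma membrane. The calcium that enters binds calmodulin, calmodulin switches on calcineurin, and calcineurin removes phosphates from NFAT factors, which then enter the nucleus. In Treg cells NFAT is known to bind DNA together with Foxp3, whereas in conventional T cells it pairs with AP-1 at cytokine genes. Much of this control acts on proteins, by phosphorylation and location, and RNA counts do not measure it.

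The KO library held 23789264 reads in genes and the WT library 11662867. Levels are given as reads per 1000000 gene reads after TMM scaling (CPM) and, for comparing genes, per kilobase of merged exons as well (RPKM). Intervals are exact at 95% and cover counting error only. The 8 Treg markers were all detected in both libraries, and those that passed 1.5-fold went both ways. Foxp3 had 1320 CPM in the KO library and 713 CPM in the WT library. Ctla4 had 88.8 CPM in the KO library and 143 CPM in the WT library, and Ikzf2 had 203 CPM in the KO library and 322 CPM in the WT library. Both were past 1.5-fold lower, though not with the trend on GC content described below removed. The summed level of 14 effector Treg markers was 286 CPM in the KO library and 703 CPM in the WT library. Of the 14, 12 were lower by 1.5-fold or more in KO, beside 5.51% of all expressed genes (defined below). The list was chosen with earlier results of these data known, so this count is a description and not separate support. In bulk RNA, fewer effector cells and less RNA per cell cannot be told apart. Sums over markers of other cells were 102 CPM in the KO library and 129 CPM in the WT library for 7 B cell genes, 58.5 CPM in KO and 49.0 CPM in WT for 8 CD8 T and NK cell genes, and 436 CPM in KO and 483 CPM in WT for 8 myeloid genes. They were 5.96 CPM in the KO library and 15.3 CPM in the WT library for 8 erythroid and platelet genes, with the globin genes Hbb-bs and Hba-a1 at 0 in both, and 327 CPM in KO and 299 CPM in WT for 6 stromal and endothelial genes. Nearly all of the last sum was Pecam1, at 324 CPM in KO and 295 CPM in WT. Their part in the values below was not tested.

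Summed over the 10 genes, the RNA level of the machinery was nearly the same in the KO library as in the WT library. By their log2 ratio of KO over WT 5 genes lay above 0 and 5 below, by small amounts. None of the 10 genes was 1.5-fold higher and none was 1.5-fold lower. Among all 10899 expressed genes, those with a mean of at least 20 reads over the libraries, 7.43% were at least 1.5-fold higher and 5.51% at least 1.5-fold lower. At such shares few or no calls are likely among 10 genes, so their absence does not set these genes apart. The 10 genes together had 51277 reads (2214 CPM) in the KO library and 26314 reads (2197 CPM) in the WT library, a ratio of 1.01 (0.993 to 1.02). Their median log2 ratio of KO over WT was 0.04, against 0.01 for all expressed genes, and with total-count scaling it was -0.03. At a lower threshold, an absolute log2 ratio of 0.32, 1 gene was higher (Nfatc2) and none was lower, against 19.8% and 15.1% of all expressed genes. Each of the 10 genes had a mean above 500 reads, and among the 5713 genes with a mean of at least 500 reads 17.0% were higher and 9.08% lower at that threshold.

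**Figure D1:**
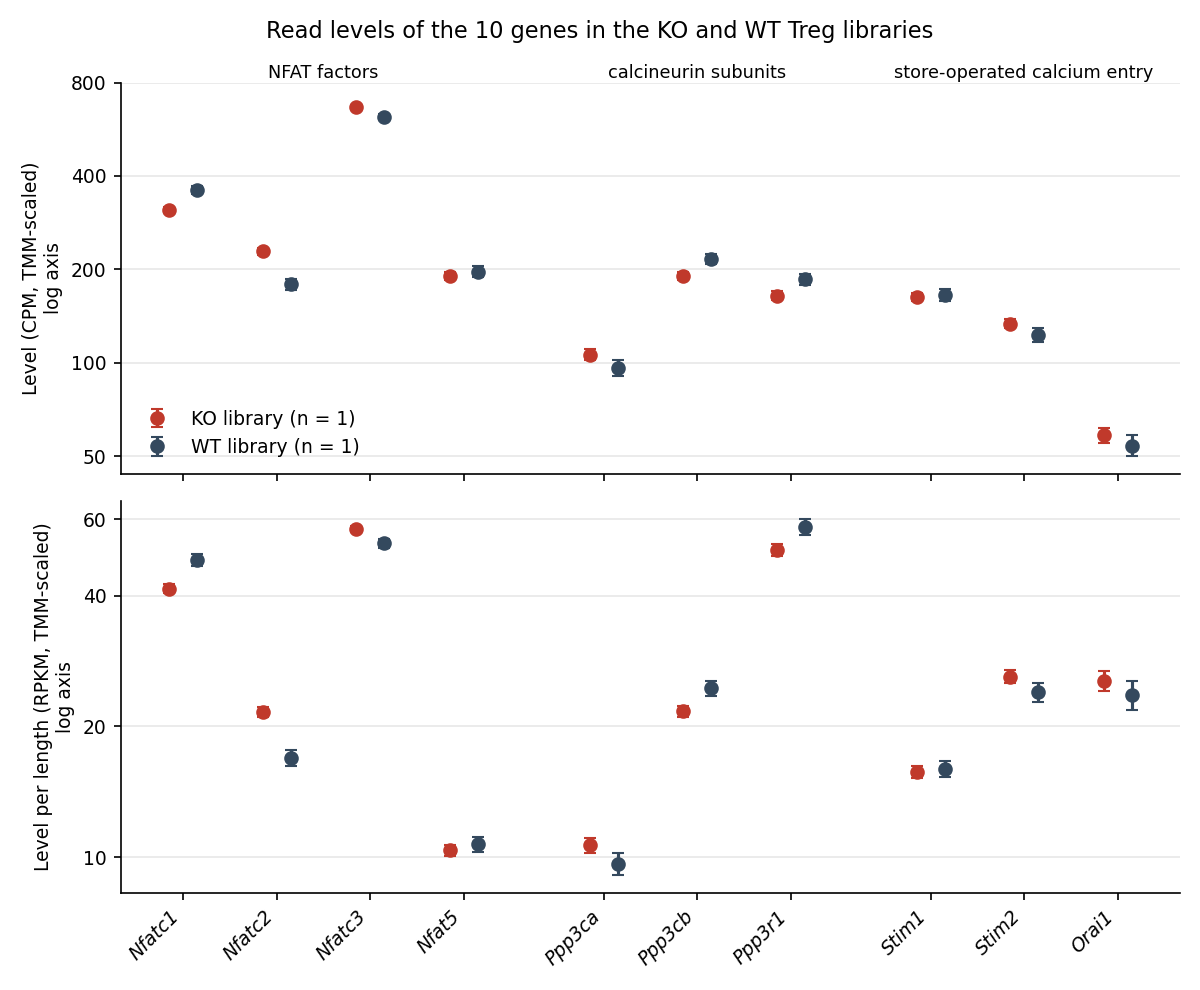
Levels of the 10 genes in the KO library (red, left of each pair) and the WT library (blue, right), as CPM in the upper panel and RPKM in the lower panel, both on log axes. Points are single libraries and bars are exact 95% Poisson intervals for counting error. The members of each pair lie close together, and Nfatc2 (229 CPM in KO, 179 CPM in WT) shows the widest gap.

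The NFAT factors differed in opposite directions by small amounts. Nfatc1 (chromosome 18, 80606205 to 80713071, minus strand; all coordinates are of GRCm38, which is mm10) encodes a factor that activated T cells induce through a promoter it binds itself. It had 7187 reads (310 CPM) in the KO library and 4325 reads (361 CPM) in the WT library. That is 1.16-fold lower (1.12 to 1.21), a log2 ratio of -0.22, the lowest of the 10 genes. Nfatc2 (chromosome 2, 168476410 to 168601657, minus strand) encodes the factor that resting T cells keep ready in the cytoplasm. It had 5297 reads (229 CPM) in the KO library and 2146 reads (179 CPM) in the WT library, 1.28-fold higher (1.21 to 1.34), a log2 ratio of 0.35. It was the highest of the 10, and 68.7% of all expressed genes had a smaller absolute log2 ratio.

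Nfatc3 (chromosome 8, 106058840 to 106130537, plus strand) is the third calcium-controlled member expressed in these cells. It had the most reads of the family, 15458 (667 CPM) in the KO library and 7418 (619 CPM) in the WT library, a ratio of 1.08 (1.05 to 1.11). Its exons share bases with Esrp2 on the other strand, and the sources used here do not state if counting used strand. Nfat5 (chromosome 8, 107293470 to 107379517, plus strand) encodes the member that answers to salt stress and lacks the calcineurin docking region of the others. It had 4415 reads (191 CPM) in the KO library and 2356 reads (197 CPM) in the WT library, and its ratio of 0.969 (0.922 to 1.02) was not distinguishable from 1 at this depth. Nfatc4, the remaining calcium-controlled member, had 0 reads in the KO library, which allows up to 0.130 CPM, and 1 read in the WT library, so no fold is given.

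The make-up of the family differed a little between the libraries, and a share of family reads does not depend on how the libraries are scaled. Nfatc1 made up 22.2% (21.8 to 22.7, Clopper-Pearson) of NFAT reads in the KO library and 26.6% (25.9 to 27.3) in the WT library. Nfatc2 made up 16.4% (16.0 to 16.8) in the KO library and 13.2% (12.7 to 13.7) in the WT library. Nfatc3 held the largest share, 47.8% in the KO library and 45.7% in the WT library, and Nfat5 made up 13.6% in the KO library and 14.5% in the WT library. The intervals of Nfatc1, Nfatc2 and Nfatc3 did not overlap between the libraries. These shares count raw reads and are not per length. Per kilobase of merged exons Nfatc3 still held the largest share, 43.6% in the KO library and 41.0% in the WT library. Nfatc1 then made up 31.8% in KO and 37.5% in WT, Nfatc2 16.6% in KO and 13.1% in WT, and Nfat5 7.95% in KO and 8.31% in WT. Reads of the 7 annotated Nfatc1 transcripts are summed in the table, so short and long isoforms could not be separated.

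**Figure D2:**
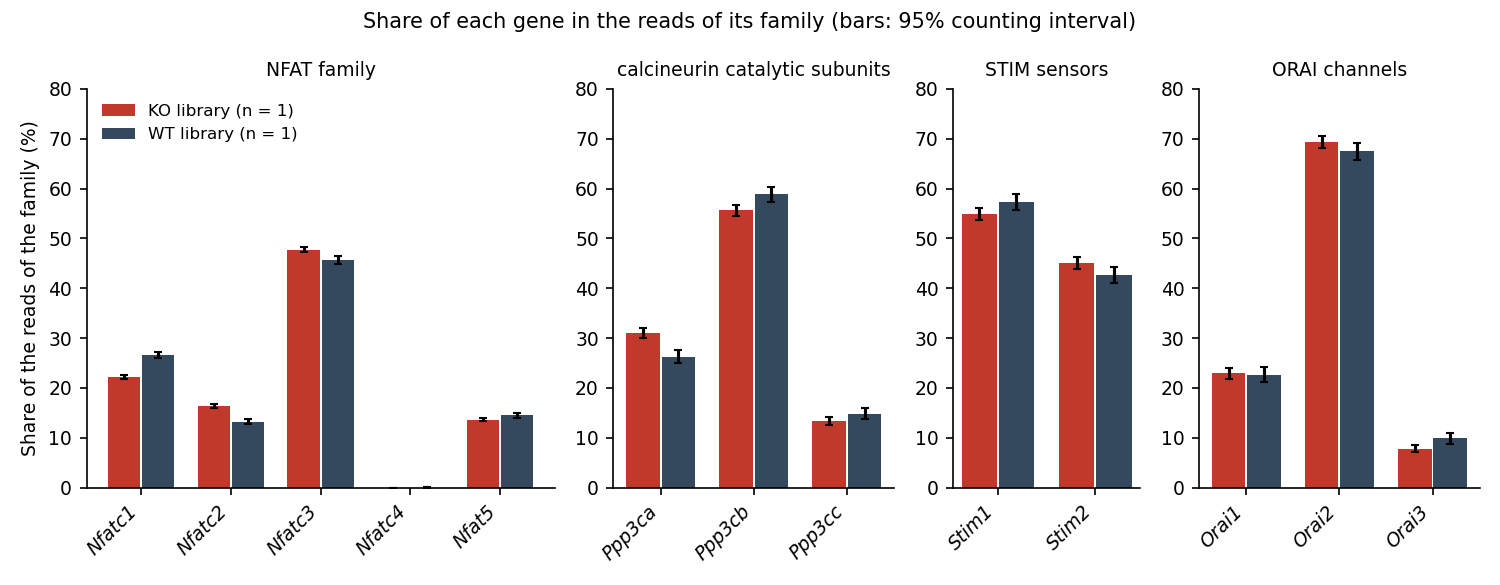
Share of each gene in the reads of its family (percent, vertical axis) in the KO library (red, left) and the WT library (blue, right), for NFAT factors, calcineurin catalytic subunits, STIM sensors and ORAI channels. Lines are Clopper-Pearson 95% intervals. Nfatc1 stands at 22.2% in KO, against 26.6% in WT, and Ppp3ca stands at 31.0% in KO, against 26.3% in WT.

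Calcineurin is a catalytic subunit joined to a calcium-binding regulatory subunit. Ppp3ca (chromosome 3, 136670124 to 136937727, plus strand), the alpha catalytic subunit, had 2459 reads (106 CPM) in the KO library and 1154 reads (96.3 CPM) in the WT library, a ratio of 1.10 (1.03 to 1.18). Ppp3cb (chromosome 14, 20499364 to 20546573, minus strand), the beta catalytic subunit, had 4419 reads (191 CPM) in the KO library and 2584 reads (216 CPM) in the WT library, 1.13-fold lower (1.08 to 1.19). Ppp3r1 (chromosome 11, 17159263 to 17200375, plus strand), the regulatory subunit, had 3815 reads (165 CPM) in the KO library and 2228 reads (186 CPM) in the WT library, also 1.13-fold lower (1.07 to 1.19). Ppp3cb and Ppp3r1 had almost equal log2 ratios, -0.18 each, and Ppp3ca lay on the other side at 0.14. Ppp3r1 shares exon bases with Wdr92, transcribed in the same direction, which makes its count less certain. With the third catalytic gene, Ppp3cc, the catalytic subunits summed to 343 CPM in the KO library and 366 CPM in the WT library, and Ppp3ca made up 31.0% (30.0 to 32.0) of their reads in the KO library and 26.3% in the WT library, with intervals that did not overlap. Ppp3cb made up 55.7% in the KO library and 58.9% in the WT library. Per kilobase of merged exons Ppp3cb made up 45.5% in KO and 46.8% in WT. Ppp3cc then made up 32.2% in KO and 34.7% in WT, and Ppp3ca 22.3% in KO and 18.4% in WT. The order of these 2 depends on the gene length used. Per kilobase of the longest transcript Ppp3ca had an RPKM of 22.3 and Ppp3cc 18.3 in KO, and 20.2 and 21.8 in WT.

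Windows around the transcription starts are shown for Nfatc2, the highest of the 10 genes, and for Ppp3cb. Ppp3cb was the lowest of the 3 calcineurin genes among the 10, by a narrow margin from Ppp3r1. Windows at the downstream start of Rcan1 and at an internal start of Atp2b4, which come up below, are also shown. Each runs from 250 bases before to 50 bases after the start, 5′ to 3′ on the gene's own strand, from RefSeq (GRCm38.p6). The Atp2b4 window lies inside the annotated span of the gene (133699457 to 133801041, minus strand) and not at its 5′ end. Capitals mark GGAAA, the core of NFAT sites, or TTTCC, its reverse complement.
Nfatc2, chr2:168601608-168601907, minus strand: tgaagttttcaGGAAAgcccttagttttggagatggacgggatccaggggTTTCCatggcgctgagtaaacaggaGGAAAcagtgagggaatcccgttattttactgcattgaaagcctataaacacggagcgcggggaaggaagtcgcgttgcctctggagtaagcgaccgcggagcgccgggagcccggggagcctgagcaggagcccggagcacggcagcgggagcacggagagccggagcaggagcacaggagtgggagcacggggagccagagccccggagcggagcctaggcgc
Ppp3cb, chr14:20546524-20546823, minus strand: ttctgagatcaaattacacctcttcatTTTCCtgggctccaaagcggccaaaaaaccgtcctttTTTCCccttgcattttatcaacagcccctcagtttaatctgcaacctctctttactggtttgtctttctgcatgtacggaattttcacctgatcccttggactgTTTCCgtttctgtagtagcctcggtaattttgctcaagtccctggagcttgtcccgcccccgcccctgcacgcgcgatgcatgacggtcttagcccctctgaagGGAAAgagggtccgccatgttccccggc
Rcan1, chr16:92400029-92400328, minus strand: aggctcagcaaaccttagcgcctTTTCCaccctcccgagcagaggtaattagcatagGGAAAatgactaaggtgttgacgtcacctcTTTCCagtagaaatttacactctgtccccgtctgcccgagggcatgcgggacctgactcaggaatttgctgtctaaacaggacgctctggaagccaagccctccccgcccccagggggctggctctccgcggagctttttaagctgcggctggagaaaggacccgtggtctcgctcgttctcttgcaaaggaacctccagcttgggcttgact
Atp2b4, chr1:133753698-133753997, minus strand: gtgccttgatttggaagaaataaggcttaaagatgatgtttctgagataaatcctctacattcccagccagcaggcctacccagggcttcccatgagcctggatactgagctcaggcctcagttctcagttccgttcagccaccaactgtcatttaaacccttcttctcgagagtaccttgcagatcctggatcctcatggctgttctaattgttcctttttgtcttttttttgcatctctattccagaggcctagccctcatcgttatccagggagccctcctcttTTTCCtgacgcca
The core occurred 3 times in the Nfatc2 window shown, which is the upstream of its 2 RefSeq windows, 4 times in that of Ppp3cb, 3 times in that of Rcan1 and 1 time in that of Atp2b4. The other Nfatc2 window held 1 match. Of 32851 windows of this length, 61.3% held at least 1 match, 9.42% at least 3 and 2.65% at least 4. RefSeq windows were given for 8 of the 10 genes, 10 windows in all, of which 5 held a match. Nfatc1, the lowest of the 10 genes, and Ppp3ca had no window. The windows of Ppp3r1, Stim1, Stim2 and Orai1 held 0 matches, so the member windows shown are those with the most matches. The AP-1 motif TGANTCA, on either strand, was in none of those 10 windows and in 7.81% of all windows; the Rcan1 window shown held 1, which did not overlap a GGAAA match. A match of so short a motif is a description of the letters.

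The 3 genes of store-operated calcium entry lay between -0.02 and 0.12 on the log2 scale, and between -0.14 and 0.18 with the GC trend described below removed. Stim1 (chromosome 7, 102267806 to 102437319, plus strand), the main sensor of the calcium store, had 3778 reads (163 CPM) in the KO library and 1982 reads (165 CPM) in the WT library, a ratio of 0.986 (0.933 to 1.04). Only 4.87% of expressed genes had a smaller absolute log2 ratio. Stim2 (chromosome 5, 53998499 to 54121057, plus strand), the sensor that reacts to small losses from the store, had 3098 reads (134 CPM) in the KO library and 1473 reads (123 CPM) in the WT library, a ratio of 1.09 (1.02 to 1.16). Orai1 (chromosome 5, 123015074 to 123030456, plus strand), the pore subunit of the channel, had 1351 reads (58.3 CPM) in the KO library and 648 reads (54.1 CPM) in the WT library. Its ratio of 1.08 (0.981 to 1.19) was not distinguishable from 1 at this depth, and its exons share bases with Gm2479 on the other strand. Orai1 made up 22.9% of ORAI reads in the KO library and 22.7% in the WT library, Orai2 69.3% in KO and 67.5% in WT, and Orai3 7.77% (7.10 to 8.49) in KO and 9.86% (8.79 to 11.0) in WT. These are shares of raw reads. Per kilobase of merged exons Orai1 made up 39.9% in KO and 38.6% in WT. Orai2 then made up 45.6% in KO and 43.4% in WT, and Orai3 14.5% in KO and 18.0% in WT.

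Per length, the 10 genes spanned a range that differed little between the libraries. In the KO library the order of RPKM was Nfatc3 (56.9), Ppp3r1 (51.0), Nfatc1 (41.5), Stim2 (26.1), Orai1 (25.4), Ppp3cb (21.7), Nfatc2 (21.6), Stim1 (15.7), Ppp3ca (10.6) and Nfat5 (10.4). Stim2 and Orai1, Ppp3cb and Nfatc2, and Ppp3ca and Nfat5 were neighbours whose counting intervals overlapped. In the WT library the order was Ppp3r1 (57.6), Nfatc3 (52.8), Nfatc1 (48.3), Ppp3cb (24.5), Stim2 (24.0), Orai1 (23.6), Nfatc2 (16.9), Stim1 (16.0), Nfat5 (10.7) and Ppp3ca (9.65). There Ppp3cb and Stim2, Stim2 and Orai1, and Nfatc2 and Stim1 overlapped. Nfatc3 stood at percentile 92.9 of expressed genes in the KO library and 92.8 in the WT library, and Nfat5 at 59.95 in KO and 61.3 in WT. The order depends on the gene length used: per kilobase of the longest transcript Nfatc3 came first in both libraries, followed by Nfatc1 and then Ppp3r1. The order of the STIM genes reversed, with Stim1 at 37.4 in KO and 37.9 in WT and Stim2 at 27.1 in KO and 24.9 in WT.

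**Figure D3:**
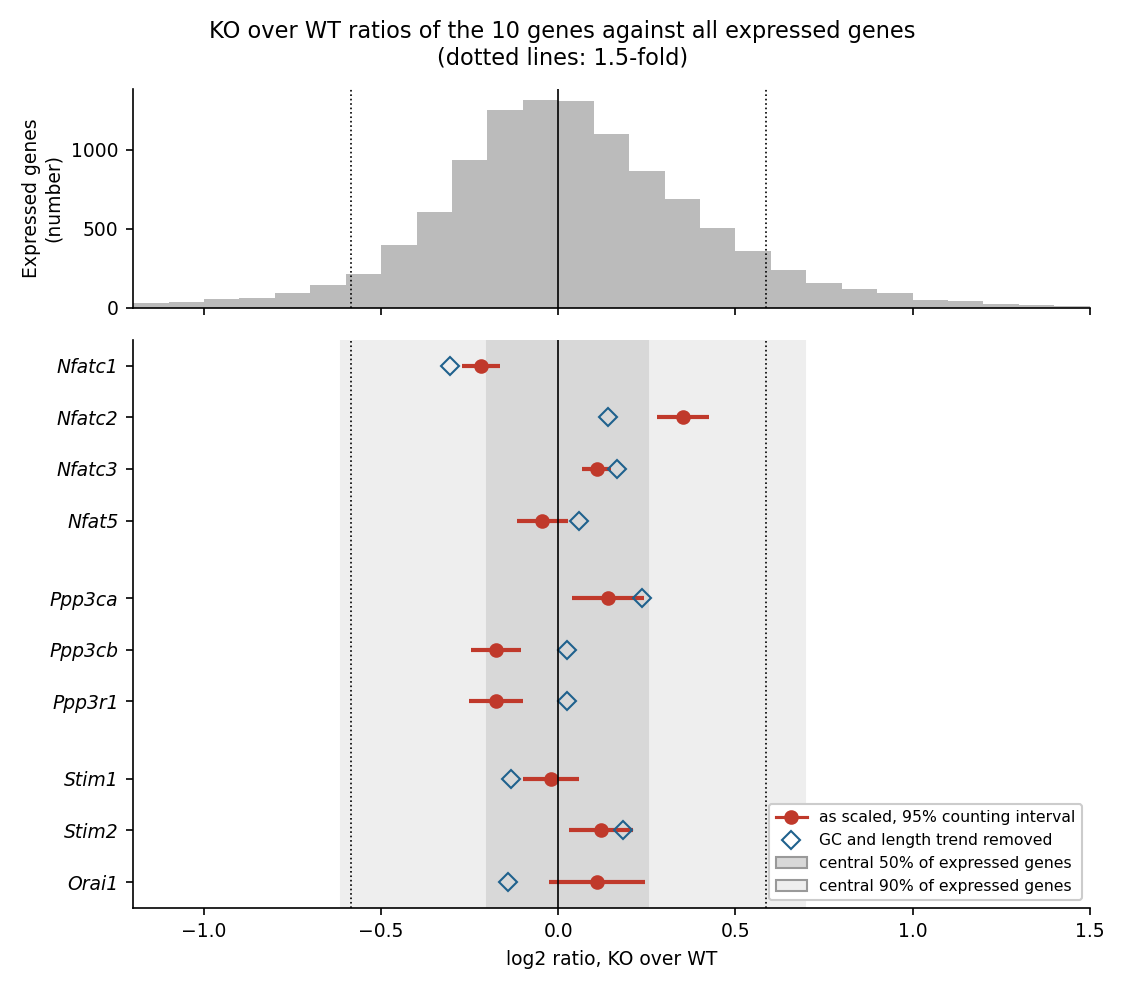
Upper panel, number of expressed genes by log2 ratio of KO over WT. Lower panel, the same ratio for each of the 10 genes, as scaled (red points with 95% counting intervals) and with the GC and length trend removed (open diamonds), on bands for the central 50% and 90% of expressed genes. All 10 genes lie inside the 1.5-fold lines, from -0.22 for Nfatc1 to 0.35 for Nfatc2.

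Transcript GC content moved with the ratio across all genes and touches these results. Over the 10467 expressed genes with a GC value, which are not independent, the Spearman correlation was 0.41, and with genes divided by GC content into 10 classes of equal size the median log2 ratio was -0.18 in the lowest class and 0.36 in the highest. The longest transcripts of the 10 genes ran from 39.8% GC for Ppp3cb to 58.6% for Orai1. Ppp3cb and Ppp3r1, both GC-poor, lay near the medians of their classes (-0.18 and -0.13), and with the trend on GC content and length removed their log2 ratios were 0.02 each. Nfatc2, at 55.3% GC, had a ratio of 0.35 in a class with a median of 0.22, and 0.14 with the trend removed. Nfatc1, at 53.7% GC, lay the other way, at -0.22 in a class with a median of 0.11, and was at -0.31 with the trend removed, the lowest of the 10 on either scale. Nfat5 and Orai1 also changed sign, to 0.06 and -0.14, and Ppp3ca, at 0.24, was then the highest. Shares of family reads hold the same differences in GC content, and its part in the ratios and shares was not tested.

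**Figure D4:**
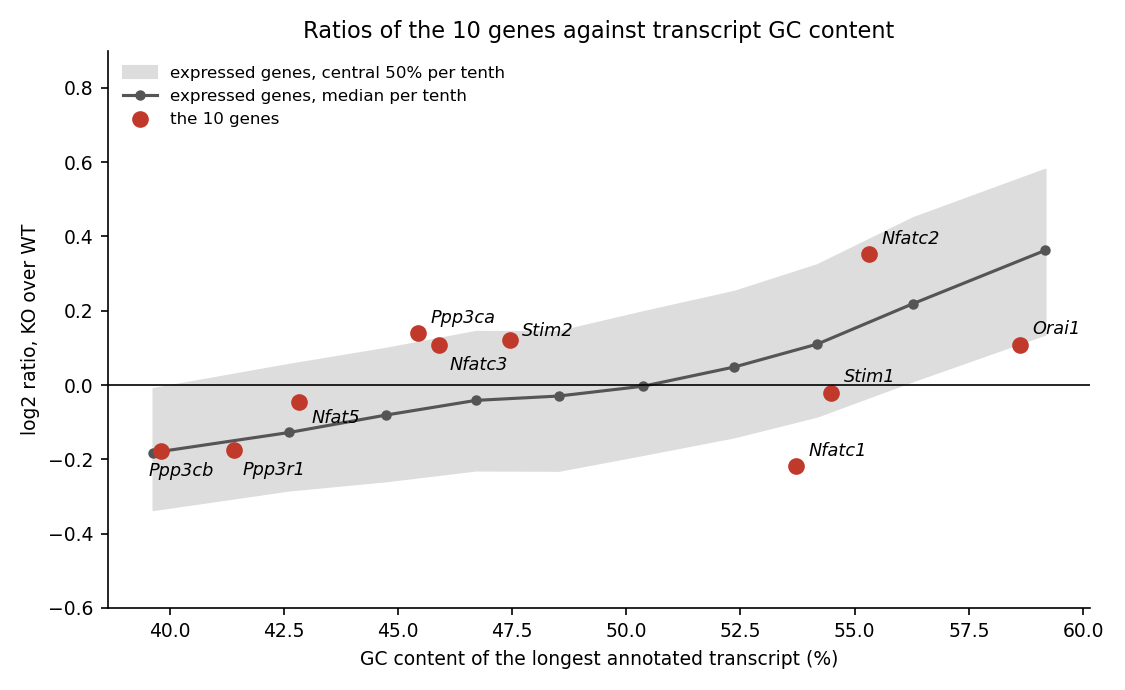
Log2 ratio of KO over WT (vertical) against GC content of the longest annotated transcript (percent, horizontal) for the 10 genes (red), with the median and central 50% of expressed genes in each of 10 classes of GC content (grey). Ppp3cb and Ppp3r1 lie near the grey line, and Nfatc1 (-0.22) lies below the band of its class.

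Around these 10 genes, the remaining genes of calcium signalling were read in lists by role. The list counts are to be read beside all expressed genes, of which 7.43% were at least 1.5-fold higher and 5.51% at least 1.5-fold lower. The paralogs Ppp3cc (1059 reads in KO, 650 in WT) and Orai3 (458 in KO, 282 in WT) were 1.19-fold lower each, with intervals of 1.07 to 1.31 and 1.02 to 1.38, and no measured paralog reached 1.5-fold. Of 7 measured calcineurin regulators and partners 1 was at least 1.5-fold higher and none lower (median log2 ratio -0.05). That gene was Cabin1, which encodes a protein that binds and inhibits calcineurin, with 4030 reads (174 CPM) in the KO library and 1335 reads (111 CPM) in the WT library, 1.56-fold higher (1.47 to 1.66). Its log2 ratio of 0.64 was 0.36 with the GC trend removed and 0.57 with total-count scaling, both under 1.5-fold. No gene on the list of 10 for calmodulin and its dependent kinases reached 1.5-fold (median -0.06). Camk2d, a kinase subunit, had 92.9 CPM in the KO library and 117 CPM in the WT library, a log2 ratio of -0.33. Camkk2, which phosphorylates other kinases of this group, had 27.0 CPM in the KO library and 22.4 CPM in the WT library, a log2 ratio of 0.27.

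Rcan1 was singled out after its values were seen, because calcineurin and NFAT are known to drive its downstream promoter and its protein in turn restrains calcineurin. It had 304 reads (13.1 CPM) in the KO library and 171 reads (14.3 CPM) in the WT library. The ratio of 0.919 (0.760 to 1.12) was not distinguishable from 1 at this depth. The table sums reads from its upstream and downstream starts.

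Of 13 measured NFAT kinases and nuclear transport genes 1 was higher and none lower at 1.5-fold (median 0.13). Among all expressed genes 7.43% were higher and 5.51% lower. Csnk1e, a casein kinase 1 isoform of the group that phosphorylates NFAT, had 1092 reads (47.1 CPM) in the KO library and 322 reads (26.9 CPM) in the WT library, 1.75-fold higher (1.55 to 1.99), and its log2 ratio was 0.62 with the GC trend removed. Of 6 measured regulators of STIM and ORAI 2 were higher (median 0.30), and both rested on few reads. Cracr2a, a calcium-binding partner of ORAI channels, had 173 reads in the KO library and 59 in the WT library (1.52-fold higher, 1.12 to 2.07; 0.56 on the log2 scale with the GC trend removed and 0.52 with total-count scaling). The septin gene Sept4 had 31 reads in KO and 9 in WT, 1.78-fold higher with an interval of 0.828 to 4.25 that includes 1. Its mean of 20 reads just met the floor, and only through its KO count. Its part in the count of 2 and in the list median is therefore not separate support. All 12 receptor-proximal genes lay within 1.5-fold (median 0.04). Cd3g was at -0.53, which total-count scaling took past 1.5-fold lower, and at -0.29 with the GC trend removed. Lcp2 was at -0.22, and at -0.12 with that trend removed.

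Leaving aside targets and partners of NFAT, the plasma membrane pump gene Atp2b4 had the log2 ratio farthest from 0 on these lists. Of 21 measured genes of calcium release, pumps and other channels, 3 passed 1.5-fold on the lower side in the KO library and none on the higher side (median -0.04). Among all expressed genes 5.51% were lower and 7.43% higher. With the GC trend removed 2 of the 21 were lower past 1.5-fold. Atp2b4 (chromosome 1, 133699457 to 133801041, minus strand), whose product exports calcium from the cell, had 462 reads (19.9 CPM) in the KO library and 906 reads (75.6 CPM) in the WT library, 3.79-fold lower (3.39 to 4.25). Atp2b1 (chromosome 10, 98914406 to 99026143, plus strand), the other pump of this kind on the list, had 2471 reads (107 CPM) in the KO library and 1988 reads (166 CPM) in the WT library, 1.56-fold lower (1.47 to 1.65). Its log2 ratio of -0.64 was -0.55 with the GC trend removed, under 1.5-fold, while that of Atp2b4 was -1.92 and then -1.90. Together the pair had 127 CPM in the KO library and 242 CPM in the WT library, a ratio of 0.524 (0.498 to 0.552). Trpv2, a cation channel, had 66.4 CPM in the KO library and 101 CPM in the WT library, 1.53-fold lower (1.41 to 1.65). By contrast, the pumps that refill the endoplasmic reticulum were not lower past 1.5-fold: Atp2a2 had 214 CPM in the KO library and 221 CPM in the WT library, and Atp2a3 had 583 CPM in KO and 432 CPM in WT. These genes, chosen after their values were seen, were at -0.01 and 0.17 on the log2 scale with the GC trend removed.

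**Figure D5:**
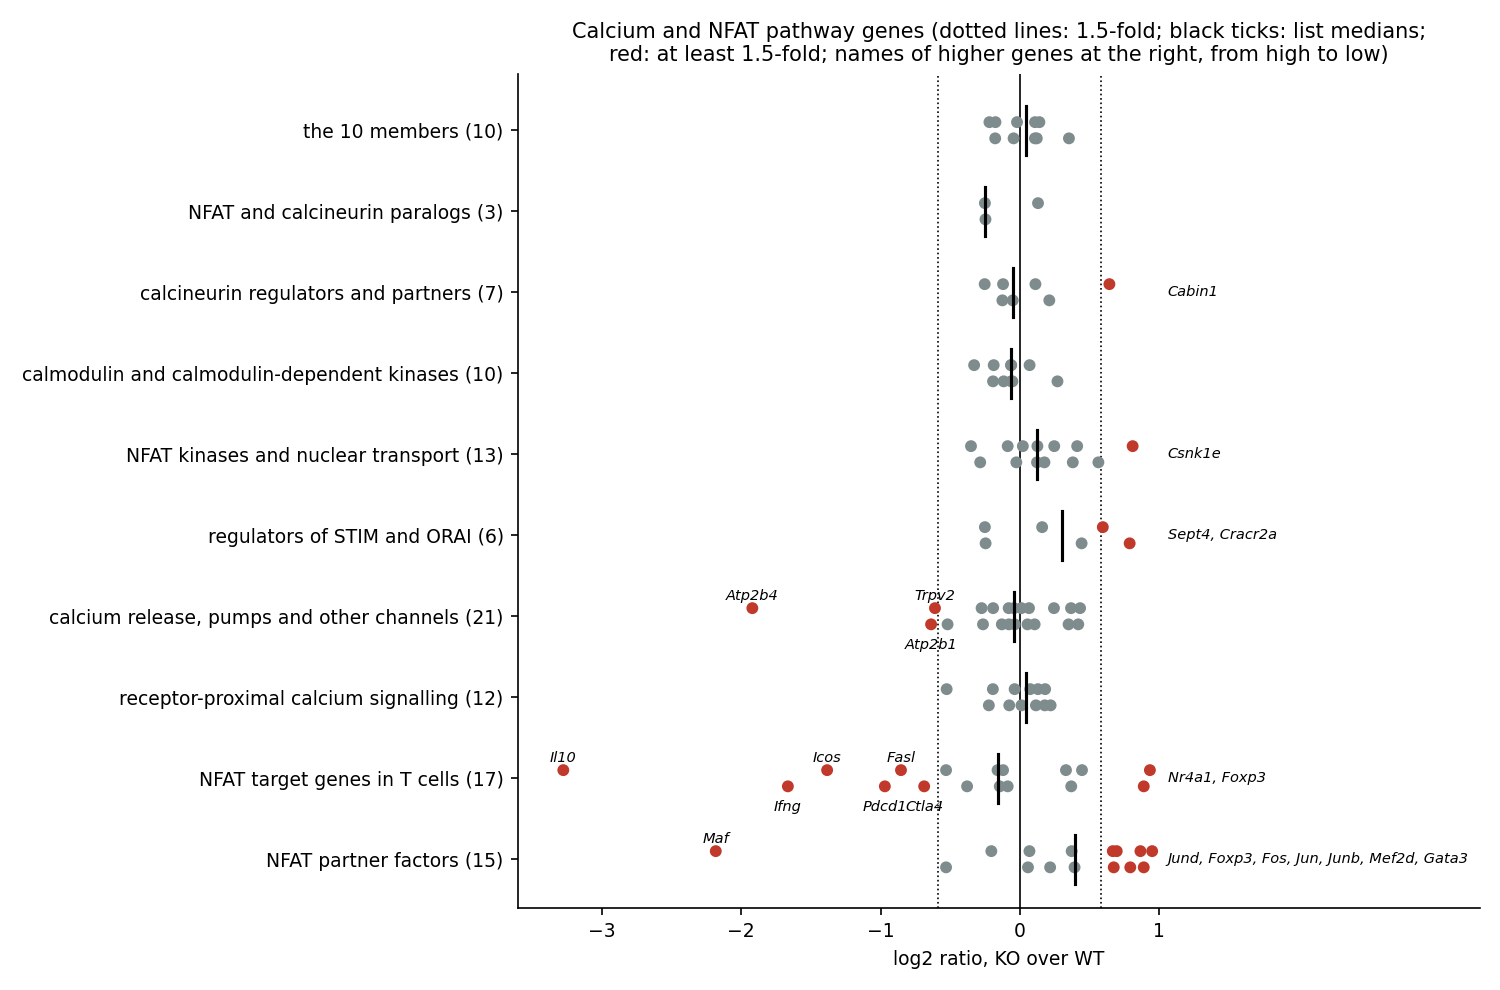
Log2 ratio of KO over WT (horizontal) for the 10 genes and for each list of calcium and NFAT pathway genes (rows, with the number measured); points are genes, black ticks list medians, and red marks genes at least 1.5-fold different. Atp2b4 (-1.92) stands apart among pumps, while the target and partner lists spread to both sides.

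Known targets of NFAT in T cells went both ways. Of 17 measured targets 2 passed 1.5-fold on the higher side, 6 on the lower side and 9 on neither (median -0.16), beside 7.43% higher and 5.51% lower among all expressed genes. With a floor of 100 reads 3 remained on the lower side, since Il10, Ifng and Fasl have fewer. Il10 and Ifng passed the floor of 20 reads only through the WT library, where they were higher. Their place among the 6 is therefore not separate support. The lower side held the cytokines Il10 (7 reads in KO, 41 in WT; 11.3-fold lower, 5.03 to 29.9) and Ifng (18 in KO, 31 in WT; 3.33-fold lower), and the receptors Icos (62.2 CPM in KO, 162 CPM in WT; 2.61-fold lower) and Pdcd1, which encodes PD-1 (25.7 CPM in KO, 50.3 CPM in WT; 1.96-fold lower, 1.75 to 2.20). Icos and Il10 are also on the effector Treg list, whose sum was lower in the KO library as given above. The 2 higher genes, named after their values were seen, were Foxp3 and Nr4a1, at 0.89 and 0.93 on the log2 scale. Il2, Il4, Il3, Csf2 and Il21 were under the floor of 20 reads and were not measured.

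Partner factors of NFAT also split, with more on the higher side. Foxp3 and Irf4 are on both the target list and the partner list, and Foxp3 counts as higher in each. Of 15 measured partners 7 passed 1.5-fold on the higher side, 1 on the lower side and 7 on neither (median 0.39). Among all expressed genes 7.43% were higher and 5.51% lower. Jund, an AP-1 subunit, had 690 CPM in the KO library and 357 CPM in the WT library, 1.93-fold higher. With the GC trend removed its log2 ratio was 0.43, under 1.5-fold. Fos, another AP-1 subunit, was at 0.87 and, with the trend removed, 0.91. Maf, a factor that acts with NFAT at cytokine genes, was the lower one, with 399 reads (17.2 CPM) in the KO library and 939 reads (78.4 CPM) in the WT library, 4.55-fold lower (4.04 to 5.13). With the GC trend removed 4 partner genes passed 1.5-fold on the higher side. Over all expressed genes 57.45% of the 1.5-fold calls were higher in the KO library, and 45.1% with total-count scaling.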

How the data were processed

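The authors deposited a table of raw read counts per gene symbol for the KO and WT libraries. The tools were TopHat2 2.0.3 and HTSeq with the build mm10, per the submitters' processing notes. Annotation and strand setting are not stated in the sources used here. Entries outside genes, 23.4% in each library, were left out. Counts were scaled with TMM factors (edgeR 4.0.16; 0.974 for KO, 1.03 for WT). Log2 ratios used a pseudocount of 1 on scaled counts, and calls of 1.5-fold used these ratios; printed folds and CPM have no pseudocount. Ratio intervals are conditional binomial (Clopper-Pearson) at 95%, and reads without molecular identifiers are not independent molecules, so they may be too narrow. No test was possible with 1 library a group. Lengths, GC content, overlaps and coordinates came from GENCODE M21 (GRCm38), matched by symbol. Some list genes, among them Jund, Foxp3, Ifng, Maf, Csnk1e and Cracr2a, share exon bases with other genes, which makes their counts less certain. The GC and length trend was a smooth fit (mgcv 1.9.3) over expressed genes, with GC content and length of the longest transcript. DESeq2 1.42.0 gave size factors only. Scripts were tested on simulated data. The named genes are the 10 members and, from each list, up to 4 genes past 1.5-fold or else the 2 farthest from 0. The members and lists were chosen with earlier results of these data known. The targeted gene and some list genes are not reported here.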

Additional observations from a re-analysis of the deposited data

How the results depend on the processing

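The absence of 1.5-fold differences among the 10 genes held under 3 other scalings, 2 other pseudocounts, no floor or a floor of 100 reads, and removal of the GC and length trend. At a threshold of 0.32 on the log2 scale 1 of the 10 was higher; with total-count scaling or the GC and length trend removed none passed it either way. Their median log2 ratio ran from -0.03 (total-count scaling) to 0.04. Nfatc1 stayed lowest in every setting, between -0.31 and -0.22, and Nfatc2 lay between 0.14 and 0.35, highest except with the trend removed. Small ratios of single genes depend on the scaling, which their counting intervals do not cover. With total-count scaling Nfatc3 went from 0.11 to 0.03, outside its counting interval, and Ppp3cb from -0.18 to -0.25, also outside. With the trend removed Nfat5, Ppp3cb, Ppp3r1 and Orai1 changed sign.

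The settings for the pathway lists were chosen after seeing the data. Of 144 list counts under them 14 moved by more than 1.5 times. With total-count scaling 0 calcineurin regulators and 1 STIM and ORAI regulator were higher, and 1 receptor-proximal gene and 2 NFAT partners were lower. With the GC and length trend removed 0 calcineurin regulators, 1 STIM and ORAI regulator and 4 NFAT partners were higher. With a pseudocount of 5 or a floor of 100 reads 1 STIM and ORAI regulator was higher, and that floor left 3 lower NFAT targets. With no floor 1 paralog was lower, 2 calcineurin regulators and 2 kinase or transport genes were higher, and 1 kinase or transport gene was lower. The genes added there had a mean under 20 reads. They were Nfatc4 (0 reads in KO, 1 in WT), Akap5 (26 in KO, 7 in WT), Nron (1 in KO, 0 in WT) and Homer2 (3 in KO, 5 in WT). The cause of the other moves was not tested. No called gene reversed. No paired analysis was possible because each group has 1 library. Depth limits genes with few reads, such as Sept4, Il10 and Ifng.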
